A study of Mus musculus with 5 samples.

Results

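Sites of N6-methyladenosine (m6A) that lie outside the DRACH motif were examined in direct RNA sequencing data from mouse embryonic stem cells (mESCs). DRACH is a motif of 5 bases that starts with A, G or T, followed by A or G, the methylated A, a C, and A, C or T at the end. A position was taken as such a site if it had more than 25 valid calls in both libraries of the METTL3 inhibition dataset, a methylation level of 25% or more in DMSO, lay on an exon of GENCODE M21 (mm10), and was not a DRACH motif in any transcript of its strand. The methylation level is the percentage of valid calls that were m6A. Mitochondrial RNA and the copy of 18S rRNA on chromosome 17 were left out. Of 450328 covered exon positions, 6091 were at 25% or more in DMSO, and 599 of these, or 9.83%, were outside DRACH. They lay on 461 genes, and 592 of them on protein-coding genes. The DMSO level chose these sites, so their levels in DMSO, and their differences between DMSO and STM2457, are given as a description.

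The METTL3 inhibition dataset held 1 library of cells treated with 30 μM STM2457, a small molecule that blocks the catalytic activity of METTL3, for 48 h, and 1 library of cells treated with the solvent, 0.025% v/v DMSO. Both came from the same modified E14 mESC line, which carried 2C::3xtbGFP-PEST and Zscan4::mCherry-PEST reporters, a Dox::APOBEC1-YTH-HA-IRES-tdiRFP construct that was not induced, and a homozygous FKBP12 F36V knock-in at the C-terminus of Mettl3, also not induced. The Mettl5 dataset held 1 library of WT mESCs and 1 each of Mettl5-KO clones #1 and #2, all untreated. All cells were grown in serum and LIF, with 2i for maintenance, each dataset carried a single batch label, and no condition other than Mettl5-KO had more than 1 library.

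Most m6A in mRNA is written by the METTL3–METTL14–WTAP complex at DRACH motifs, preferentially in long internal exons and 3′ UTRs, and exon junction complexes are known to keep this methylation away from splice junctions. Other methyltransferases act on few substrates. METTL16 methylates U6 snRNA and hairpins in the 3′ UTR of Mat2a, which encodes the enzyme that makes S-adenosylmethionine, METTL5 methylates 18S rRNA and ZCCHC4 methylates 28S rRNA.

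The sites were divided by the transcript sequence around the called base. Of the 599, 332 differed from DRACH at 1 base, 254 differed at 2 or more bases, and 7 had a transcript base other than A. Another 6 had the sequence TACAG with the second of its A bases called. They are named the METTL16 type here because the Mat2a sites carry TACAG, and the name rests on these 5 bases alone. Of the sites with 1 mismatch, 176 had a G at the last base of the motif (position +2, counted from the called A), 72 had no C at +1, 71 had a C or T at −1 and 13 had a C at −2. There were 126 different 5-mers, and GGACG alone held 134 sites, followed by GGATT with 50, GTACT with 44, CTATG with 26, AGACG with 23 and CCACG with 18. The examples below, from GENCODE M21 transcripts in the 5′ to 3′ direction with T for U, show how each class departs from DRACH, and those with 2 or more mismatches have no 5-mer in common. Capitals mark the 5-mer with the called base in its middle.
Ppil1, mismatch at +2: gtctctggGGACGtttgtatt
Tubb5, mismatch at +2: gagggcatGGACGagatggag
Rcl1, mismatch at +1: tcatctttGGATTgtggctct
Zfp42, mismatch at −1: ggcggtgtGTACTgtggtgtc
Zfp42, mismatch at −2: aactaaagCGACAttttctgg
Mat2a, METTL16 type, highest level: gtgtagctACAGAgaaaccag
Mat2a, METTL16 type, lowest level in the clones: gcgtaagtACAGAgaagccat
Psmc5, 2 or more mismatches: tcaagaagCTATGgaagtgag
Pcbp1, 2 or more mismatches: tcggctgcATAATcgggcgcc
Trh, 2 or more mismatches: tgacctgaGTAGGggccagga
Cops8, base not A: ttctcctcAGGCActtttgaa
Snapc2, base not A: gagacggaAGGCTctacacaa

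Outside the 18S copy, valid calls over all positions numbered 71454107 in DMSO, 53977950 in STM2457, and between 17784401 and 19411433 in the Mettl5 dataset, and the median number of valid calls at the sites was between 45 and 55 per library. Of 9 mESC marker genes, 9 had deposited positions at any depth in the METTL3 inhibition dataset and 7 in the Mettl5 dataset. Klf4 had only 2 such positions, with a median of 25 valid calls in DMSO. Of 11 markers of fibroblasts, endoderm, mesoderm and neural cells, 0 had such positions in either dataset. No position of Mettl5 or Mettl3 was covered, so the genotype was not checked on the targeted gene. Intervals given with a level are exact binomial (95%) and reflect counting error alone, as do the upper limits given for counts of 0, which take 3 counts over the total.

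Sites with 1 mismatch lost most of their m6A calls in STM2457, whereas sites with 2 or more mismatches and the METTL16 type mostly kept them. Over all 599 sites, the median was 35.8% with DMSO and 16.1% with STM2457. By Fisher's exact test (two-sided, Benjamini-Hochberg adjustment over 6196 sites), 319 of them were lower at an adjusted p below 0.05, where the share over all tested sites was 91.6%. A higher level was called at 1 of them, with a share of 0.323% over all tested sites. The 5492 DRACH sites had medians of 55.3% and 10%. The test compares libraries, and the sites were chosen on the DMSO level.

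**Figure D1:**
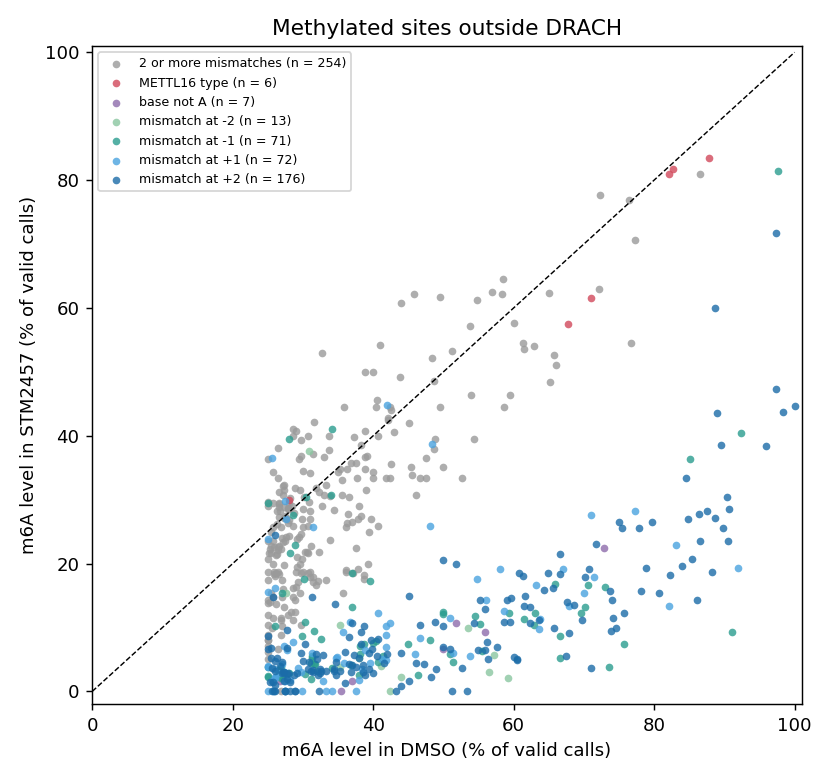
Methylation level in DMSO (x axis, %) and in STM2457 (y axis, %) at the 599 sites outside DRACH, each point a site and each colour a sequence class. Sites with 1 mismatch lie mostly near the bottom, with a median of 7.12% in STM2457, while the 254 sites with 2 or more mismatches had a median of 28.2%.

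The sites with 1 mismatch had medians of 39.9% (DMSO) and 7.12% (STM2457), and the median relative decrease, the fall divided by the DMSO level, was 83.3%. DRACH sites had a median relative decrease of 80.8%. By the place of the mismatch, the median relative decrease was 83.6% at +2, 82.8% at +1, 81.5% at −1 and 90.0% at −2, so each of the 4 medians was above that of the DRACH sites. The number called lower was 171 of 176 (97.2%), 61 of 72 (84.7%), 56 of 71 (78.9%) and 11 of 13 (84.6%) in the same order. Among the DRACH sites, 5354 of 5492 (97.5%) were called lower, so none of the 4 shares was above theirs.

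Sites are named here by level among those with 50 or more calls in both libraries, and less covered sites had levels up to 100% of 33 calls in DMSO (Wbp11, 44.7% in STM2457). The highest level with a mismatch at +2 and this coverage was on Ppil1, a peptidyl-prolyl isomerase of the spliceosome (3′ UTR, chromosome 17, position 29251386, minus strand). The level was 97.3% of 223 calls in DMSO (interval from 94.2% to 99%) and 47.3% of 205 calls in STM2457 (40.3% to 54.4%), and 95.5% in WT, 96.0% in clone #1 and 97.1% in clone #2. Thus STM2457 was the lowest of the 5 libraries at this site and the others lay close together. A GGACG in the coding sequence of the β-tubulin gene Tubb5 (chromosome 17, position 35835106, minus strand) was covered most deeply, with 82.2% of 1507 calls in DMSO and 18.2% of 905 calls in STM2457, and with 69.4% in WT, 77.0% in clone #1 and 75% in clone #2. Tubb5 has close paralogs, and how the aligner divided their reads was not checked. Other GGACG sites with a large fall were on Tmem14c, a mitochondrial inner membrane protein of haem synthesis (75.7% in DMSO and 12.3% in STM2457), on Npc2, a lysosomal cholesterol carrier (86.4% and 27.7%), and on Gemin4, a component of the SMN complex (90.4% and 30.4%). Rbmxl1 (90.5% and 23.5%) is uncertain because it has a near-identical paralog. H2afx, which encodes the histone variant H2AX, carried an AGACG at 88.7% in DMSO and 27.1% in STM2457.

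With a mismatch at +1, the GGATT on Rcl1, a factor of 18S rRNA processing (3′ UTR, chromosome 19, position 29143594, plus strand), had 82.1% of 106 calls in DMSO (interval from 73.4% to 88.9%) and 13.3% of 90 calls in STM2457 (7.08% to 22.1%). The same 5-mer on Ly6e, a GPI-anchored surface protein, had 83.2% and 22.9%, and on Asf1b, a histone H3–H4 chaperone, 67.1% and 19.2%. These 3 positions were not covered in the Mettl5 dataset.

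With this coverage, a mismatch at −1 was found at the highest level on Zfp42 (also Rex1), a zinc finger gene of pluripotent cells (coding sequence, chromosome 8, position 43295975, minus strand). This GTACT had 92.4% of 354 calls in DMSO, 40.4% of 297 calls in STM2457, 85.0% in WT, 83.7% in clone #1 and 95.2% in clone #2. Zfp42 carried 2 more sites in its last exon, a CGACA with a mismatch at −2 (41.2% in DMSO, 3.93% in STM2457, 27.1% in WT, 31.4% in clone #1 and 45.0% in clone #2) and a GGATT (25.9%, 3.47%, 20.7%, 19.2% and 12.9%). By level, the next sites with a mismatch at −2 and this coverage were on Tmed1 and Cd2bp2. Tmed1, a cargo receptor of the secretory pathway, had 38% in DMSO and 5.17% in STM2457. Cd2bp2, a protein of the U5 snRNP, had 35.4% and 3.75%, and both sites were below the median of their class, 41.2%. Named after its values were seen, a CAACC on Rack1 was the 1 site of this class with a higher level in STM2457. It had 30.8% of 373 calls in DMSO and 37.6% of 205 calls in STM2457, which did not pass Fisher's exact test (adjusted p 0.12). At this Rack1 site, 51.0% of the calls in DMSO failed the confidence filter, and the share of mismatched calls was 29.5%. All 3 Zfp42 sites were lowest in STM2457, and 3 kinds of mismatch were present within 1 exon. On Gpx1, a glutathione peroxidase, a GCACT had 85.1% in DMSO and 36.3% in STM2457, but 42.2% of its calls in DMSO failed the confidence filter and are not part of the level. The next site of this kind by level with this coverage, on Gm16286, had 73.0% in DMSO, 16.4% in STM2457, 43.2% in WT, 74.3% in clone #1 and 59.5% in clone #2.

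**Figure D2:**
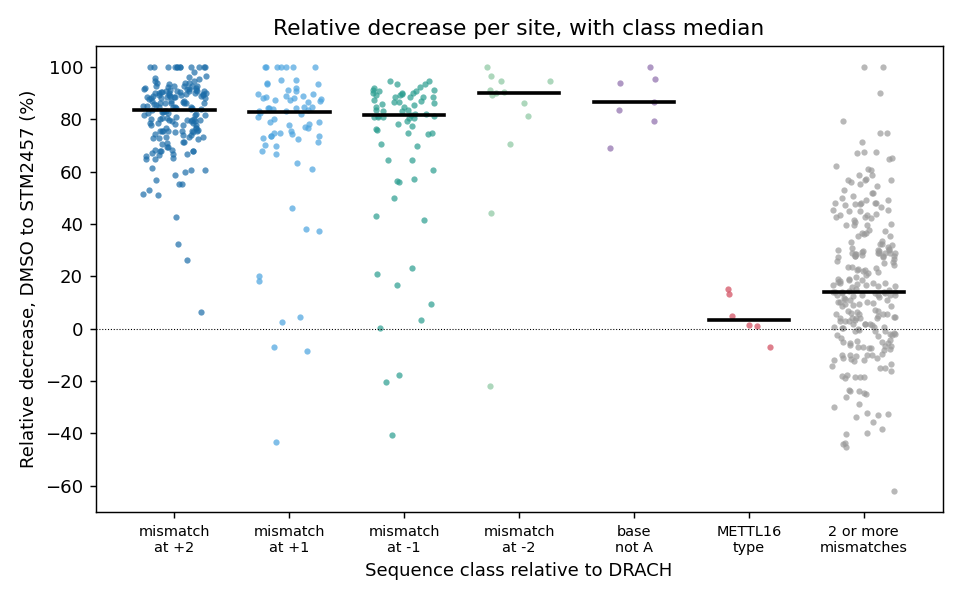
Relative decrease in STM2457 (y axis, %) by sequence class (x axis), with each point a site outside DRACH and each black bar a class median. The 4 classes with 1 mismatch had medians between 81.5% and 90.0%, the METTL16 type 3.24% and the class with 2 or more mismatches 14.1%.

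In the class with 2 or more mismatches, the median was 30.2% with DMSO and 28.2% with STM2457, and the relative decrease was under 25% at 159 of its 254 sites. A lower level was called at 13 of them. Glrx5, a mitochondrial iron–sulphur cluster protein, had the highest DMSO level, at 86.6% of 67 calls in DMSO (interval from 76.0% to 93.7%) and 80.9% of 89 calls in STM2457 (71.2% to 88.5%). The poly(C)-binding protein gene Pcbp1 (coding sequence, chromosome 6, position 86525034, minus strand) had 72.3% in DMSO and 77.7% in STM2457, and 49.1% in WT, 56.9% in clone #1 and 53.4% in clone #2. Trh, the precursor of thyrotropin-releasing hormone (coding sequence, chromosome 6, position 92242634, minus strand), had 65.1% of 1065 calls and 62.3% of 446 calls, and 41.2%, 46.9% and 54.8% in WT and the clones. Grcc10 had a GTATG at 72.1% in DMSO and 63.0% in STM2457. At Psmc5, an ATPase of the 19S proteasome particle (coding sequence, chromosome 11, position 106263053, plus strand), a CTATG had 54.8% in DMSO and 61.3% in STM2457. None of these 5 differences between DMSO and STM2457 passed the test, with adjusted p between 0.10 and 0.41. At these 5 sites, between 43.5% and 48.1% of the calls in DMSO failed the confidence filter and are not part of the levels. The only site called higher lay in the coding sequence of Actg1, a cytoplasmic actin gene with close paralogs, with 32.7% in DMSO against 53.0% after inhibition (adjusted p of Fisher's exact test 0.0041), and 23.8% in WT, 19.8% in clone #1 and 21.8% in clone #2.

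Failed calls, which are below the confidence filter, moved with the class. The median share of failed calls in DMSO was 2.50% for a mismatch at +2, 7.46% at +1, 15.6% at −1, 8.11% at −2, 25.9% for the METTL16 type and 41.7% with 2 or more mismatches, against 3.23% at DRACH sites. A share of 20% or more was found at 291 of the 599 sites, but at 50 DRACH sites, or 0.910%. The 308 sites below 20% had medians of 40.5% in DMSO and 6.45% in STM2457, and 288 of them were called lower. The 291 sites at 20% or more had medians of 30.9% and 27.6%, and 31 were called lower. Across the 599 sites, which share both libraries, the failed share in DMSO and the relative decrease had a Pearson r of −0.794 and a Spearman rho of −0.746. The classes differ in both values, so these relations need not hold within a class. Across the 5492 DRACH sites, of which few had a high failed share, the Pearson r was −0.0248. The 50 DRACH sites at 20% or more had medians of 56.6% in DMSO and 12.8% in STM2457, and 47 of them were called lower. At the 149 sites covered in all 5 libraries, the failed shares in DMSO and WT, from separate batches, had a Pearson r of 0.923. With failed calls counted in the denominator of the level, 43 sites with 2 or more mismatches were left at 25% or more, and 168 of the 176 with a mismatch at +2. The part of failed calls in the kept levels was not tested.

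**Figure D3:**
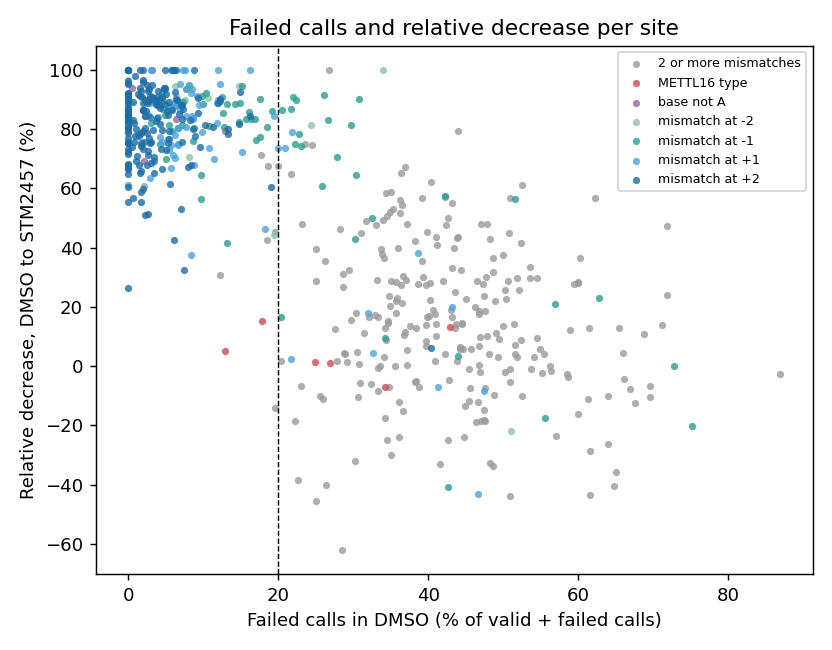
Share of calls that failed the confidence filter in DMSO (x axis, %) and relative decrease in STM2457 (y axis, %), each point a site outside DRACH coloured by class, and the dashed line at 20%. Sites with few failed calls lie near the top, and the 291 sites with 20% or more failed calls had a median relative decrease of 14.4%.

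For the 5-mers that held many sites, every covered position was then taken, whatever its level. These 5-mers were themselves picked for their number of sites, and so by the DMSO level, and the means are a description. Over 1115 positions with GGACG, the mean level was 9.67% in DMSO (SD over positions 18.2) and 2.16% in STM2457. The Mettl5 dataset covered fewer positions, 393 for GGACG, with means of 6.15% in WT, 5.94% in clone #1 and 6.45% in clone #2. GGATT had a mean of 3.85% in DMSO and 0.68% in STM2457 over 1480 positions, and GTACT had 5.3% and 1.82% over 1075 positions. In WT and the clones, the means were from 2.29% to 2.64% over 691 positions with GGATT and, for GTACT, from 4.50% to 4.56% over 431 positions. The means of CTATG were 4.36% in DMSO and 4.03% in STM2457 over 1578 positions, and 4.39% in WT, 4.61% in clone #1 and 4.35% in clone #2 over 611 positions. CCACG likewise had 4.99% in DMSO and 4.80% in STM2457. All positions outside DRACH had means of 1.0% and 0.85%, and the DRACH 5-mer GGACT, given for scale, had 41.1% and 12.8%. Differences between these means were not tested, and the position sets of the datasets differ.

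Position in the transcript was not used to choose the sites. Of the sites, 344 (57.4%) were in 3′ UTRs, 244 (40.7%) in coding sequence, 4 in 5′ UTRs and 7 in non-coding transcripts. The last exon held 84.8% of them. For the other covered positions outside DRACH, the shares were 51.2% in 3′ UTRs, 45.5% in coding sequence and 72.8% in the last exon. Among sites with 1 mismatch on spliced transcripts, 12 of 310, or 3.87%, were within 100 bases of a splice junction, against 33.1% of the covered positions with 1 mismatch that were not sites. DRACH sites had 5.19%, against 39.9% of the DRACH positions under 25%. For GGACG the shares were 5.56% of sites and 54.8% of other positions. None of 48 GGATT sites and none of 41 GTACT sites was within this distance, where the share of other positions was 31.7% for each, and a count of 0 allows a share of up to 6.25% and 7.32%. For sites with 2 or more mismatches, the shares of 27.0% and 34.8% were closer to each other, and for CTATG they were 36% and 45.8%. These shares are a description, and neighbouring positions of a transcript share their reads.

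**Figure D4:**
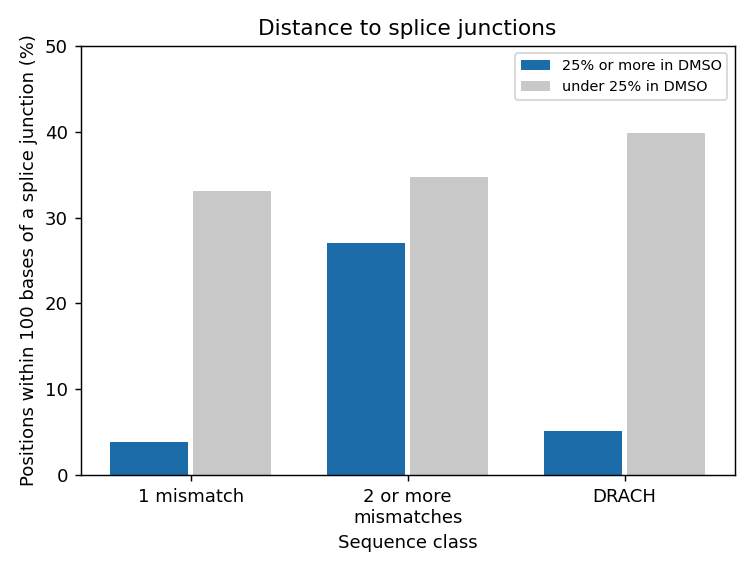
Percentage of positions within 100 bases of a splice junction (y axis) by sequence class (x axis), for positions at 25% or more in DMSO (blue) and under 25% (grey). Sites with 1 mismatch (3.87%) and DRACH sites (5.19%) lie far below the other positions of their class, and sites with 2 or more mismatches (27.0%) lie closer to theirs.

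Covered positions were rarely beside a methylated DRACH site, and the sites outside DRACH were no exception. Of the 599, 10, or 1.67%, lay within 5 bases of a DRACH A at 25% or more in DMSO. The share was 2.53% for the other positions outside DRACH and 1.71% for the DRACH sites. Of the 10 sites, 2 were at offset −5 from that A, 4 at −4, 1 at −1, 1 at +3 and 2 at +5. The 4 sites at −4, of which 3 were GGACG, had a median of 27.8% in DMSO and 1.64% in STM2457, while their DRACH neighbours had 52.7% and 14.2%. The site at −1, a GTAAC, had 42.1% in DMSO and 42.5% in STM2457, and its DRACH neighbour had 89.2% and 26.2%. On the scale of whole genes, 507 of the 599 lay on 383 genes that also carried a DRACH site, or 83.1% of the 461 genes, where the share over all 2562 covered genes was 62.1%. Both shares depend on how many positions of a gene were covered, and their difference was not tested.

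A single site was found on 356 genes, 2 sites on 76, 3 on 26 and 4 or more on 3 genes. Dyrk3, a dual-specificity kinase, carried 4, and all were on exon 3 with levels from 25.5% to 61.5% in DMSO and from 4.44% to 11.4% in STM2457, beside 17 DRACH sites. Tsc22d1, a leucine zipper transcription regulator, carried 4 in its 3′ UTR, with 27.1% to 38.6% in DMSO and 2.33% to 7.09% in STM2457, beside 10 DRACH sites. Mat2a carried 5 and no DRACH site. Among 10 covered genes of a list of 19 pluripotency factors, 5 carried a site (Esrrb, Klf2, Sox2, Tdgf1 and Zfp42, 11 sites in all). Among 5 covered genes of a list of 24 m6A writers, readers, erasers and S-adenosylmethionine enzymes, 3 did (Mat2a, Mettl16 and the m6A reader gene Ythdf1). Over all covered genes the share was 18%, and well covered genes have more positions that can pass. On Mettl16 itself, 2 GGACG sites in the coding sequence of exon 10 had 63.6% and 71.0% in DMSO and 11.1% and 3.70% in STM2457. The pair of GGACG sites in the 3′ UTR of Esrrb, an orphan nuclear receptor of naive pluripotency, lay 4 bases apart, and the upstream one had 70.7% and the downstream one 27.4% in DMSO, with 19.1% and 0 of 48 calls in STM2457, which allows a level of up to 6.25%. On Sox2, a core pluripotency factor, an AGATA in the 3′ UTR had 54.8% in DMSO, 17.6% in STM2457, 17.6% in WT, 26.9% in clone #1 and 42% in clone #2, so WT was here as low as STM2457. An AGATC on Sox2 had 25% in DMSO, 15.6% in STM2457, 24.3% in WT, 7.14% in clone #1 and 23.7% in clone #2, and the inhibitor's difference there did not pass (adjusted p of 0.41, Fisher's exact test). Klf2, a Krüppel-like factor, had a GGACG at 34.6% in DMSO, 13.6% in STM2457, 19.4% in WT, 23.1% in clone #1 and 37.1% in clone #2. An ACATG on Klf2, with 39.8% failed calls in DMSO, had 31.4% in DMSO, 17.2% in STM2457, 23.6% in WT, 10.7% in clone #1 and 31.4% in clone #2. Ythdf1 carried a GGATT and an AGACG in coding sequence, with 25% and 42% in DMSO and 4% and 5.88% in STM2457.

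The 6 sites of the METTL16 type were the 5 on Mat2a and 1 on Cdk4, a cyclin-dependent kinase (28% of 50 calls in DMSO and 30% of 50 calls in STM2457). The Cdk4 site had a G after TACAG, unlike those on Mat2a, and 34.2% failed calls in DMSO. TACAG was at 1849, or 0.411%, of the covered positions on the transcript strand. TACAGAGAA was at 29 of them, of which 5 were on Mat2a, and 4 of these 5 and no others were sites. TACAGAAAA was at 17, of which 1 was a site, also on Mat2a. The other positions with these 2 sequences, among them a TACAGAGAA on Mat2a, had at most 4.55% and 2.41% in DMSO. The Mat2a sites lie in exon 9 in the 3′ UTR on the minus strand of chromosome 6, and the relative decrease of the class had a median of 3.24%.

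In the Mettl5 dataset, which did not choose the sites, the 5 Mat2a levels were as follows. At 72433287, WT had 90.8%, clone #1 72.7% and clone #2 79.2%. At 72434250 it was 85.5%, 64.9% and 77.1%, and at 72432953 it was 80.4%, 69.0% and 59.6%. All 3 were highest in WT. At 72433061 the levels were 77.8%, 72.5% and 65.9%, and at 72433172, where 42.9% of the calls in DMSO failed, 57.5%, 38.9% and 41.5%. All 5 were therefore lower in both clones than in WT, but none passed Fisher's exact test, with adjusted p between 0.35 and 1.0, and unadjusted p between 0.0080 and 0.65. Both clones share the WT library and the 5 sites share their reads, so the common direction was not counted as 5 observations.

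Of the 599 sites, 149 were covered in the Mettl5 dataset. The median over them came to 26.7% for WT, 28.4% for clone #1 and 28.6% for clone #2, and 79, 89 and 89 of them were at 25% or more. Compared with WT, both clones were higher at 60 sites, and at 45 both were lower. With 1 mismatch, 40 sites were higher and 16 lower in both clones, and with 2 or more mismatches 19 and 23. For the METTL16 type the counts were 0 and 5. Of 1218 covered DRACH sites, 579 were higher and 252 lower in both clones. Of 132571 other covered positions outside DRACH, whose median level was 0% in each library, 15711 were higher and 29070 lower. For the 75 sites with 1 mismatch, the medians were 38.1% in DMSO, 7.09% in STM2457, 26.4% in WT, 31.4% in clone #1 and 32.2% in clone #2. For the 67 with 2 or more mismatches they were 32.7%, 30.6%, 25%, 25% and 24.1%. STM2457 thus stood apart from the other 4 libraries in the first class and not in the second. DMSO and WT differ in cell line and batch, and the sites were selected in DMSO, so these cannot be told apart. Across the 149 sites, the levels in DMSO and WT had a Pearson r of 0.875 and a Spearman rho of 0.670.

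**Figure D5:**
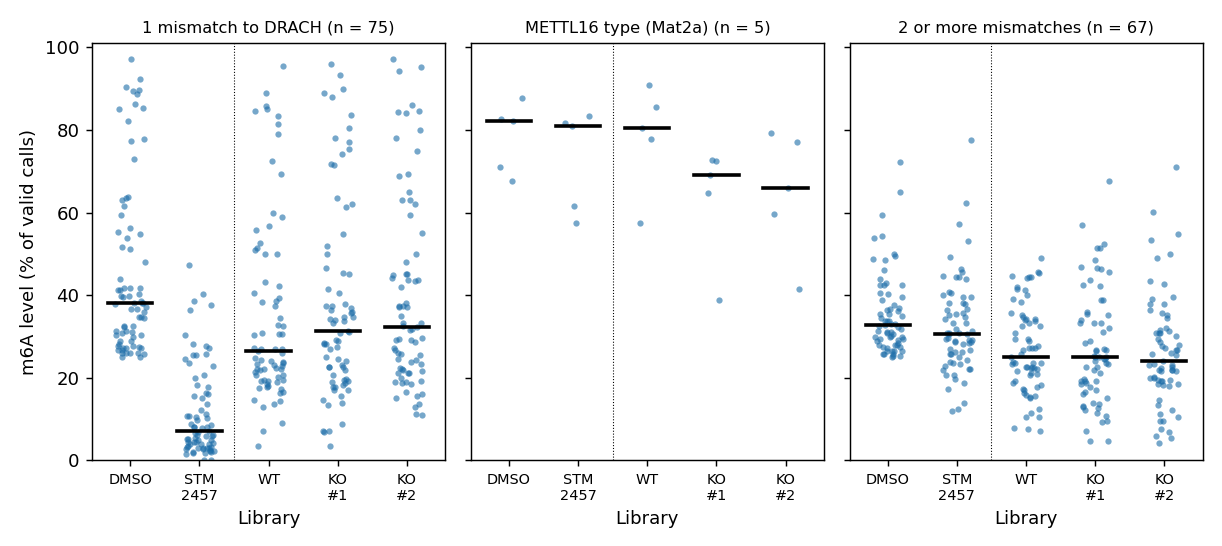
Methylation level (y axis, %) in the 5 libraries (x axis) of sites covered in all of them, with 75 sites of 1 mismatch, 5 of the METTL16 type and 67 of 2 or more mismatches in separate panels, each point a site and each black bar a median, and with a dotted line between the datasets. For sites with 1 mismatch STM2457 is lowest, at 7.09%, and the other libraries lie between 26.4% and 38.1%.

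Each clone was tested against WT at 110 of the sites, those with 25% or more in at least 1 of the 3 libraries, with adjustment over 1876 exon sites. At an adjusted p below 0.05 in each clone, 0 of the 110 sites were lower and 0 were higher, and over all tested sites the shares were 0.0533% and 0%. In clone #1 alone the shares over all tested sites were also 0.0533% lower and 0% higher, and in clone #2 0.0533% lower and 0.16% higher. None of the 110 sites was called in either clone alone, with a smallest adjusted p of 0.387 in clone #1 and 0.0722 in clone #2. An unadjusted p below 0.05 in Fisher's exact test was found at 10 of the 110 sites in clone #1 (9.09%) and at 11 in clone #2 (10%), against 6.50% and 7.62% of all tested sites. In both clones in the same direction it was found at 3 sites (2.73%), against 40 of 1876 (2.13%). These 3, named after their values were seen, were the GGACG of Tubb5, a GGATT in the 3′ UTR of Abcf1, a ribosome-associated ATP-binding cassette protein, and a CCAGT in the coding sequence of Nolc1, a nucleolar phosphoprotein. All 3 were higher in the clones. Abcf1 had 17.2% in WT (interval from 5.85% to 35.8%), 45.2% in clone #1 and 63.2% in clone #2, and Nolc1 had 39.1%, 67.6% and 71.1%. Thus no site of the 110 was called in both clones at this depth.

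At 7 sites the transcript base was not A but G (6 sites) or C (1 site), while 0 to 3 reads a site carried a base other than A in DMSO. With an A in place of the transcript base, 6 of the 7 were DRACH motifs. All 7 were called lower, with a median of 50% in DMSO and 6.67% in STM2457. Snapc2, a subunit of the snRNA-activating complex, had 72.9% and 22.4%, Cops8, a COP9 signalosome subunit, had 55.9% and 9.26%, and Guk1, guanylate kinase, had 26.7% and 1.60%. The base in the reads was taken from the counts, and no read sequence was examined.

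Near the threshold, 28 sites were at exactly 25% in DMSO, and those with the most calls were on Fkbp8 (252 calls, 23.9% in STM2457) and Tdgf1 (124 calls, 20.7%). Just outside it were positions on Rack1, with 24.9% of 373 calls and 30.1% in STM2457, and on Samm50, with 24.9% of 177 calls and 31.6%. In all, 205 of the 599 sites were below 30% in DMSO.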

How the data were processed

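Total RNA of 5 mESC cultures was sequenced directly on nanopores by the authors. WarpDemuX separated the libraries, dorado gave bases, modification calls and alignments to mm10, and modkit gave pileups. The deposited values are counts of valid, m6A, failed, mismatched and other calls per position and strand, without normalization, and a deposited percent, which is the m6A calls over the valid calls. Failed calls do not enter it, so their share was followed for each site. Coverage is highest near the 3′ ends of abundant transcripts, where sequencing begins. Deposited positions in the METTL3 inhibition dataset numbered 471848.

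Positions were matched to same-strand GENCODE M21 transcripts, and sequences are those of the transcripts, not of the reads. The transcript base was A at 99.8% of covered exon positions, a check of build and strand. Another 32 positions at 25% or more in DMSO lay on no same-strand exon. No sequence is shown for 10 sites on chromosome 18. Levels were compared by a two-sided Fisher's exact test and Benjamini-Hochberg adjustment over the exon sites at 25% or more in any library of a dataset (scipy 1.17.1 and pandas 2.3.3 in Python 3.11.15), and the code was tested on simulated data. The test compares libraries, since each condition had 1 library and each clone is 1 culture. Labels gave the groups.

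The sites and gene lists were chosen with earlier results of these data known. Sites named are the 3 with the highest DMSO level per class (50 or more calls), the 5 with the highest STM2457 level and the 5 with the largest fall (100 or more calls), all on Mat2a, genes with 4 or more sites, any called in a clone or higher in STM2457, those at the threshold, and sites on the gene lists. Exceptions are marked in the text, apart from 1 further site without a transcript A. Alternatives were other thresholds, exon sets, denominators, motif assignments and adjustments.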

Additional observations from a re-analysis of the deposited data

How the results depend on the processing

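Of the alternative values, 46 lay within a tolerance of the result as reported, and none changed a direction. The tolerance was 1.5 times for a count, and for a median or share the exact binomial 95% interval at the median coverage or the number of sites. For a median, this interval is the counting error of 1 site, not the spread of a median over sites, and is wide. With failed calls in the denominator, the median STM2457 level was 8.11% against 16.1%. The median relative decrease was then 80.8% against 65.2%, and both values counted as within the tolerance. The number of sites moved with the thresholds, to 241 with 50 or more valid calls, 163 at 50% or more in DMSO, 4473 at 10% or more, and 341 with failed calls in the denominator. The number called lower in STM2457 was 140 with 50 or more valid calls and 133 at 50% or more, where the median DMSO level was 65.9%, which follows from fewer sites and the higher threshold. With positions under 20% failed calls only, an alternative chosen after seeing the data, there were 308 sites, the median STM2457 level was 6.45% and the median relative decrease 84.4%, and the cause was not tested. With adjustment over all exon positions, 248 sites were called lower. With 1 clone left out at a time, 0 sites were called against WT, and the median of the clones was between 28.4% and 28.6%. No paired analysis was possible because the Mettl5-KO numbers are clone numbers, which pair with no WT library, and each of DMSO, STM2457 and WT has 1 library. Near 50 calls a site, and with 1 library per condition, differences of a few percentage points cannot be detected and variation between cultures was not measured.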

Other observations

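Bases outside the 5-mer also differed between the sites and the other covered positions of the same 5-mer, with positions counted from the called A. At GTACT sites, T was at +4 in 65.9% and A at −4 in 47.7%, against 29.7% and 24.3% of the other GTACT positions. GGATT sites had A at −4 in 52.0% and T at −3 in 62.0%, against 22.8% and 35.7%. T at +4 was present at 35.1% of the GGACG sites and 13.9% of the other GGACG positions. CTATG sites had G at +3 in 57.7% and at +4 in 50%, against 24.7% and 24.5%. These bases were picked after all flanking positions had been tabulated and were not tested. GGATT and GTACT sites were also more often in 3′ UTRs (74.0% and 77.3%) than the other positions of those 5-mers (58.8% and 57.4%), and the part of this in the base shares was not tested.

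Of all 1876 tested exon sites, only 1 was called lower in both Mettl5-KO clones, a TACAG in the 3′ UTR of Tdgf1, a co-receptor of Nodal signalling. It had 38.7% in WT, 13.5% in clone #1 and 12.4% in clone #2 (adjusted p of Fisher's exact test 0.0012 and 6.4e-05). By TACAG alone it fell in the METTL16 type, as did the 5 Mat2a sites. Its longer sequence, TACAGAGTA, was not among those of the Mat2a sites, TACAGAGAA and TACAGAAAA. Its level in DMSO was 18.5%, below the threshold of 25%, and it is therefore not among the 599. Another Tdgf1 position, 110940271, was among them, with 28% in DMSO and 28.6% in STM2457, and had 7.86% in WT, 4.72% in clone #1 and 5.84% in clone #2, where 50.2% of the calls in DMSO failed.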
